A study of Mus musculus with 6 samples.

Results

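The 6 genes Foxi1, Dmrt2, Hepacam2, Bsnd, Tfcp2l1 and Adcy10 are regulators and markers, outside the proton pump itself, of clear cells, the proton-secreting cells of the epididymal epithelium. They were picked by gene symbol, and 6 of 6 were present among the 57127 genes listed. At least 1 library held a count for 32046 of these, and 19691, the 6 genes among them, were abundant enough for the test. Foxi1, Dmrt2 and Tfcp2l1 encode transcription factors. No gene of the 6 encodes the pore of a chloride channel, and Bsnd encodes barttin, an accessory subunit of chloride channels. The whole epididymis of adult C57BL/6 mice was profiled by RNA sequencing in 3 WT libraries and 3 Ocln-KO libraries. The WT mice carried the wild type genotype and the Ocln-KO mice the genotype Ocln-/-, which removes occludin, a protein of tight junctions. RNA came from 3 pairs of mice per the study's methods, which call it pooled in another place, so n counts libraries, and p-values measure the spread between these libraries, which may be partly technical. No cell type to which the knockout is restricted is given in the labels.

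Clear cells acidify the lumen with a vacuolar proton pump (V-ATPase), and the acid fluid keeps sperm quiescent while they mature and are stored. They share genes with the intercalated cells of the kidney and with ionocytes of other epithelia, in which Foxi1 drives the genes of the pump and of its partners. Bicarbonate from the lumen is sensed by the soluble adenylyl cyclase encoded by Adcy10, whose cAMP brings the pump to the apical membrane of clear cells.

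The libraries held between 30646424 and 38870780 counts. Counts were converted to CPM, the usual unit of counts relative to the size of the library, with edgeR's TMM factors, and 1 count equalled between 0.0267 and 0.0314 CPM. A level of 3 counts or fewer, between 0.0801 and 0.0941 CPM, was treated as the floor, which covers counting error only. The sample records name prefrontal cortex in the extraction protocol and whole epididymis as the tissue. Some epididymal transcripts were abundant, with Crisp1 at 14878 ± 2186 CPM (SD, n = 3) and Adam7 at 7451 ± 1300 CPM (SD, n = 3) in WT. Lcn5, Ces5a and Rnase9 had WT means of 4924, 4323 and 2673 CPM, and Aqp9 and Gpx5 of 257 and 84.1 CPM. The other principal cell genes of the list below were low in WT. Lcn8, Cst8, Rnase10, Lcn9 and Cst11 had 1.76, 0.511, 0.0667, 0.0446 and 0.00897 CPM. How evenly the libraries cover the regions of the epididymis was not tested. Ocln had 85.8, 78.7 and 91.7 CPM in the WT libraries and 15.1, 15.3 and 14.9 CPM in the Ocln-KO libraries. Each Ocln-KO library was far below each WT library, although Ocln reads were still counted there. Ocln had a log2 fold change, Ocln-KO minus WT, of -2.50 (standard error 0.09, edgeR adjusted p = 0.000108).

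Ocln-KO replicate 3 stood apart from the other libraries. On the first principal component of log2 CPM, which held 47.2% of the variance, WT lay between 37 and 52.8, and Ocln-KO lay at -17.7, -29.1 and -86.3, the last being replicate 3. The summed level of 15 spermatid and sperm genes was 114 CPM in this library and between 351 and 505 CPM in the other 5. For that reason the values of the 6 genes are given with and without it.

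Foxi1, Dmrt2 and Bsnd were lower in Ocln-KO than in WT. Hepacam2 was lower in each Ocln-KO library than in each WT library but did not pass the test. Tfcp2l1 and Adcy10 overlapped between the genotypes. By edgeR's quasi-likelihood test with an adjusted p under 0.05 (Benjamini-Hochberg over all genes tested), 3 of the 6 genes were lower, where 5.04% of all genes tested were, and 0 were higher, where 3.91% were. Each Ocln-KO library lay below each WT library for 4 of the 6 genes, against 19.4% of all genes tested, and above for 0 of the 6, against 16.9%. With a fold change under 0.5 required as well, only Bsnd of the 6 was called lower, against 1.7% of all genes. Without Ocln-KO replicate 3 the same genes, Foxi1, Dmrt2 and Bsnd, were called. The median log2 fold change of the 6 genes was -0.77, and that of all 19691 genes was 0.01. Fewer clear cells, less RNA per clear cell and a different share of epididymal regions cannot be told apart in RNA from whole tissue.

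The number of calls moved with the libraries and the scaling. Over all genes, 992 were called lower and 770 higher, so that 43.7% of calls were higher. That share was 63.5% with libraries scaled by total counts alone and 65.1% with libraries scaled to 10 general epithelial genes, such as Epcam and Krt8. The median log2 fold change of all genes was 0.09 and 0.18 under these scalings. With the epithelial scaling only Bsnd of the 6 genes was called. Without WT replicate 1, 19 genes in all were called lower and 4 higher, and none of the 6 was among them. Without WT replicate 2 or WT replicate 3, 145 and 40 genes were lower and 85 and 16 were higher, again with none of the 6 called. Of the 6 genes, 4, 4 and 3 had an unadjusted p under 0.05 in edgeR without WT replicate 1, 2 or 3. The share of all genes with an unadjusted p under 0.05 is not given here. Counts at that threshold, for the 6 genes and for the lists below, are therefore not set against a background. Without Ocln-KO replicate 2, 342 genes were lower and 220 higher, with Bsnd the only one of the 6.

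**Figure D1:**
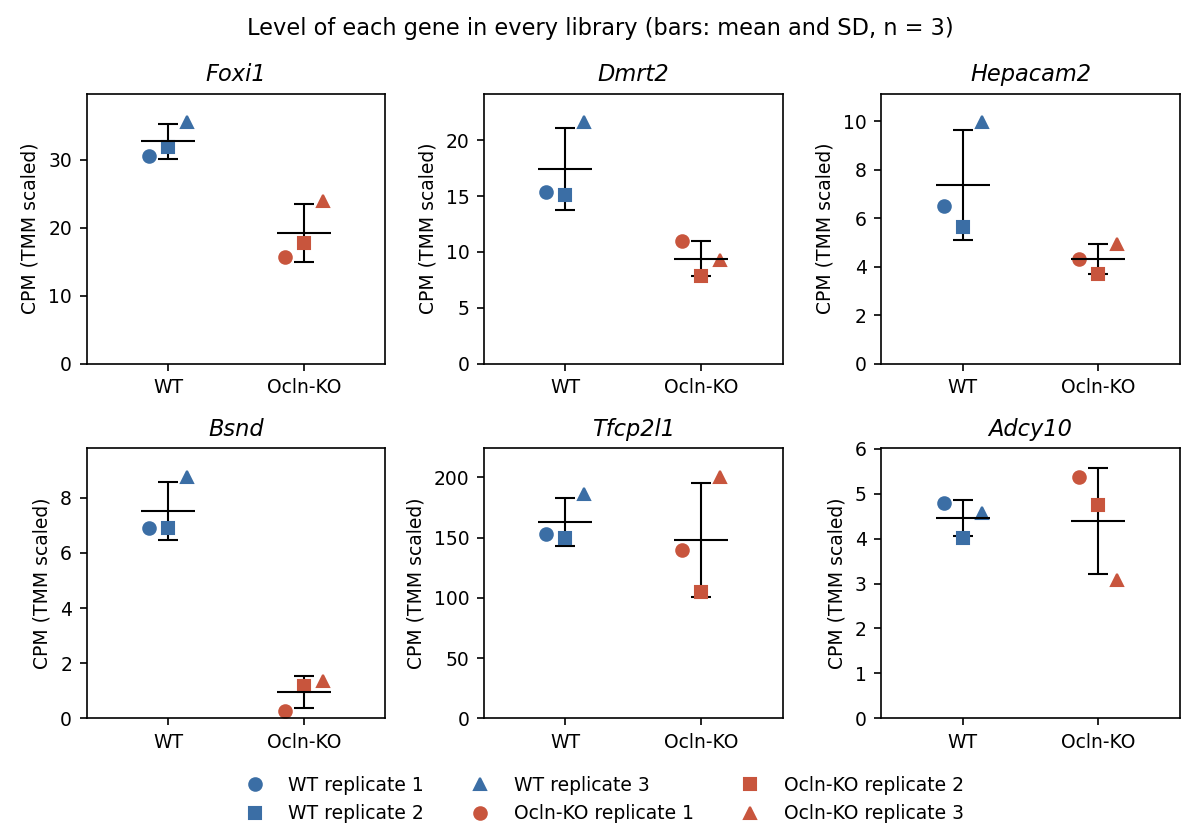
Level of each of the 6 genes in CPM (vertical axes from 0, a scale of its own for each gene) in the 3 WT and 3 Ocln-KO libraries; each point is a library, its shape giving the replicate number, and bars show the mean and SD (n = 3). Foxi1, Dmrt2, Hepacam2 and Bsnd do not overlap between the genotypes, Bsnd being at 0.28 to 1.36 CPM in Ocln-KO, while Tfcp2l1 and Adcy10 overlap.

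To compare levels between genes, CPM was divided by the length of the gene's exons in kilobases. In WT the order of the levels per kilobase was Tfcp2l1 at 17.3 ± 2.12, Foxi1 at 13.9 ± 1.06, Dmrt2 at 7.43 ± 1.57, Bsnd at 2.73 ± 0.383, Hepacam2 at 1.25 ± 0.388 and Adcy10 at 0.51 ± 0.0456 CPM per kilobase (SD, n = 3). The libraries of neighbouring genes in this order did not overlap, though Tfcp2l1 at its lowest, 15.9, was close to Foxi1 at its highest, 15. In Ocln-KO, Tfcp2l1 had 15.7 ± 5.05, Foxi1 8.13 ± 1.82, Dmrt2 4.02 ± 0.676, Hepacam2 0.736 ± 0.105, Adcy10 0.502 ± 0.135 and Bsnd 0.343 ± 0.211 CPM per kilobase (SD, n = 3). Bsnd thus stood below Hepacam2 and not above it, and its libraries overlapped with those of Adcy10, so that these genes could not be ordered. Adcy10 at its highest, 0.613, was just below Hepacam2 at its lowest, 0.63.

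Foxi1 is a forkhead transcription factor needed for the proton-secreting cells of the epididymis, the kidney and the inner ear. The gene lies on chromosome 11 from 34204341 to 34208089 (minus strand, RefSeq annotation of GRCm38.p6). It had 30.6, 31.9 and 35.5 CPM in WT replicates 1 to 3, and 15.7, 17.8 and 24 CPM in Ocln-KO replicates 1 to 3. The WT libraries were close to one another, each was above each Ocln-KO library, and Ocln-KO replicate 3 was nearest to WT. The means were 32.7 ± 2.51 in WT against 19.2 ± 4.28 CPM in Ocln-KO (SD, n = 3), a WT level 1.7 times that in Ocln-KO. The log2 fold change was -0.77 (standard error 0.16, edgeR adjusted p = 0.0332), and without Ocln-KO replicate 3 it was -0.96 (edgeR adjusted p = 0.00573). The call was lost without WT replicate 1, WT replicate 2, WT replicate 3 or Ocln-KO replicate 2, where the edgeR adjusted p was 0.11, 0.0855, 0.125 and 0.0891 and the log2 fold change -0.81, -0.79, -0.70 and -0.72. With the epithelial scaling the log2 fold change of Foxi1 was -0.57 (edgeR adjusted p = 0.14). The call was also lost with the replicate number as a block (log2 fold change -0.79, edgeR adjusted p = 0.0731).

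Dmrt2 encodes a transcription factor with a DM domain that is active in early muscle and somite development and is found in acid-secreting intercalated cells of the kidney. It lies on chromosome 19 from 25672394 to 25679013 (plus strand). In WT it had 15.4, 15.1 and 21.6 CPM, and in Ocln-KO 11, 7.87 and 9.28 CPM. WT replicate 3 was the highest library, Ocln-KO replicate 2 the lowest, and the genotypes did not overlap. Means were 17.4 ± 3.66 in WT against 9.39 ± 1.58 CPM in Ocln-KO (SD, n = 3). The log2 fold change was -0.89 (standard error 0.20, edgeR adjusted p = 0.0365), and it was -0.88 (edgeR adjusted p = 0.0456) without Ocln-KO replicate 3. The gene was no longer called without WT replicate 1, WT replicate 2, WT replicate 3 or Ocln-KO replicate 2, with log2 fold changes of -0.97, -0.98, -0.70 and -0.77 and edgeR adjusted p of 0.107, 0.0735, 0.117 and 0.0908. With the epithelial scaling it was -0.72 (edgeR adjusted p = 0.0593), and with the replicate number as a block it was -0.88 (edgeR adjusted p = 0.0921), neither being a call.

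Tfcp2l1, on chromosome 1 from 118627923 to 118685168 (plus strand), encodes a transcription factor of the grainyhead family that shapes the pattern of cell types in the kidney collecting duct and other ducts. It had 153, 150 and 186 CPM in WT against 140, 105 and 200 CPM in Ocln-KO. The highest and the lowest library were both Ocln-KO, replicate 3 and replicate 2, so the genotypes overlapped. The log2 fold change was -0.14 (standard error 0.22, edgeR adjusted p = 0.721). Without Ocln-KO replicate 3 it was -0.41 (edgeR adjusted p = 0.117), and the sign turned to 0.06 without Ocln-KO replicate 2 or with the epithelial scaling. A small nuclear RNA gene, Gm23497, shares 130 exon bases with Tfcp2l1 on the same strand. Whether reads there were counted for Tfcp2l1 is not known, since the counting mode is not given.

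Promoter sequences of RefSeq (GRCm38.p6), taken as the 250 bases before the transcript start that the promoter table lists, were found for 5 of the 6 genes; Bsnd had no entry. The listed start was not always the first base of the gene. The window of Foxi1 lies wholly before its gene, and those of Dmrt2 and Tfcp2l1 reach 17 and 22 bases into theirs. The windows of Adcy10 and Hepacam2 lie wholly inside, beginning 1415 and 3574 bases after the first base of the gene. Those of Foxi1 and Dmrt2, which were lower in Ocln-KO, and of Tfcp2l1, which was not called, are shown with each CG dinucleotide in capitals, since the number of these differs among the regulators. The windows are chr11:34208090-34208339 on the minus strand, chr19:25672161-25672410 on the plus strand and chr1:118627695-118627944 on the plus strand.
Foxi1: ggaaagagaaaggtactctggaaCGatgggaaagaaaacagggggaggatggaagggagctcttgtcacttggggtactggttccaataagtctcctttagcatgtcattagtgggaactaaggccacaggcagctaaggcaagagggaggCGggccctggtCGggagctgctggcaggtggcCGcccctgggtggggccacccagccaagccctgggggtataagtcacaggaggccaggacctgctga
Dmrt2: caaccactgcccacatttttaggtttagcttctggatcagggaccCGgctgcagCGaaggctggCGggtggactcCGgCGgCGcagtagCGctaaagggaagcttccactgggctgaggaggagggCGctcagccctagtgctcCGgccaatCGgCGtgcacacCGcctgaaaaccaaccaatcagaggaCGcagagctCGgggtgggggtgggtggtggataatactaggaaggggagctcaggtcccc
Tfcp2l1: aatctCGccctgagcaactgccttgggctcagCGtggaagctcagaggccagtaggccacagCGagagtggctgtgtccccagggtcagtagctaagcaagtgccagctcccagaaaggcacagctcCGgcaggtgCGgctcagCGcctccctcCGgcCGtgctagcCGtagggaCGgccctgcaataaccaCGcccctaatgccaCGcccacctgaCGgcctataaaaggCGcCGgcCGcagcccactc

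Foxi1 held 4 CG dinucleotides, Dmrt2 14 and Tfcp2l1 16, and the other windows held 1 for Hepacam2 and 5 for Adcy10, with a median of 6 over the 32851 windows of the table. The share of G and C was 58.8% for Foxi1, 62.4% for Dmrt2, 65.2% for Tfcp2l1, 40.4% for Hepacam2 and 50.0% for Adcy10, against a median of 52.4%. The window of Dmrt2 overlaps an exon of 2610016A17Rik, a noncoding gene on the opposite strand, which had 1.5 ± 0.167 CPM in WT against 0.999 ± 0.214 CPM in Ocln-KO (SD, n = 3; log2 fold change -0.59, edgeR adjusted p = 0.285). The forkhead core letters TGTTTAC and TATTTAC were searched on both strands. Neither was in the window of any of the 5 genes, and of all windows 3.17% held the former, 2.73% the latter and 5.76% at least 1 of them. Among 4 windows of genes known to need Foxi1, that of Atp6v1b1, the B1 subunit of the pump, held TGTTTAC. It is shown, from chr6:83742767-83743016 on the plus strand, with the match in capitals, as the single match in that list. In the list of 16 other genes of clear cells, 11 had windows, and those of P2ry14 and Ascl3 held a match, while 0 genes of the other lists searched did. A match is a description of the letters and not a binding site.
Atp6v1b1: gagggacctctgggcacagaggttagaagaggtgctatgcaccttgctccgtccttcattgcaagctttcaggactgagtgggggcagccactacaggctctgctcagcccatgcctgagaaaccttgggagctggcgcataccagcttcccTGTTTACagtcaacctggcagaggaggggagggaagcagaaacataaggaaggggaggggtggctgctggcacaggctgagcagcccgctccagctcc

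Bsnd was the gene with the largest change of the 6. Barttin is needed for chloride transport in kidney and inner ear. The gene lies on chromosome 4 from 106483456 to 106492243 (minus strand). It had 259, 236 and 325 counts in WT, or 6.92, 6.91 and 8.74 CPM, and 9, 38 and 46 counts in Ocln-KO, or 0.28, 1.19 and 1.36 CPM. Each Ocln-KO library was far below each WT library, and Ocln-KO replicate 1 was the lowest, while replicate 3 was not. The means were 7.52 ± 1.06 in WT against 0.944 ± 0.581 CPM in Ocln-KO (SD, n = 3), and the fitted WT level was 7.93 times that in Ocln-KO. The test gave a log2 fold change of -2.99 (standard error 0.49, edgeR adjusted p = 0.0201). Without Ocln-KO replicate 3 it was -3.35 (edgeR adjusted p = 0.00737), and without Ocln-KO replicate 1 it was -2.55 (edgeR adjusted p = 0.00964). Without WT replicate 1, WT replicate 2 or WT replicate 3 it was -3.05, -3.05 and -2.86, and the edgeR adjusted p was 0.0929, 0.0593 and 0.0886. Under the epithelial scaling it remained called (log2 fold change -2.76, edgeR adjusted p = 0.0224). With the replicate number as a block Bsnd was not called (log2 fold change -3.15, edgeR adjusted p = 0.0673).

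Of 8 genes, Clcn1 to Clcn7 of the ClC family of chloride channels and proton exchangers and the subunit gene Ostm1, 3 were called lower, 0 higher and 5 were not called. The median log2 fold change of the 8 was -0.16, and it turned to 0.01 under the epithelial scaling. DESeq2 called 3 lower and 2 higher, limma-voom 3 and 0, and 5 had an unadjusted p under 0.05 in edgeR. The exchanger of endosomes Clcn5 had 540, 518 and 622 CPM in WT against 106, 112 and 176 CPM in Ocln-KO. The genotypes lay far apart, and the log2 fold change was -2.10 (standard error 0.20, edgeR adjusted p = 0.00614). The lysosomal exchanger Clcn7, not called with total counts as the scaling (edgeR adjusted p = 0.0562), had 257, 247 and 275 CPM in WT against 185, 169 and 111 CPM in Ocln-KO, the lowest being replicate 3 (log2 fold change -0.75, standard error 0.18, edgeR adjusted p = 0.0436). Ostm1, the partner subunit of the Clcn7 protein, had 93.4, 83.9 and 93.4 CPM in WT against 41.9, 46.8 and 44.2 CPM in Ocln-KO (log2 fold change -1.03, standard error 0.09, edgeR adjusted p = 0.0044). Both fell in all Ocln-KO libraries, Ostm1 evenly. Of the 3 called genes, 1 was still called without WT replicate 1, 2 without WT replicate 2, WT replicate 3 or Ocln-KO replicate 2, and 3 when replicate 1 or replicate 3 of Ocln-KO was left out. The log2 fold changes of the 5 other genes ran from -0.21 for Clcn2 to 1.18 for Clcn1.

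**Figure D2:**
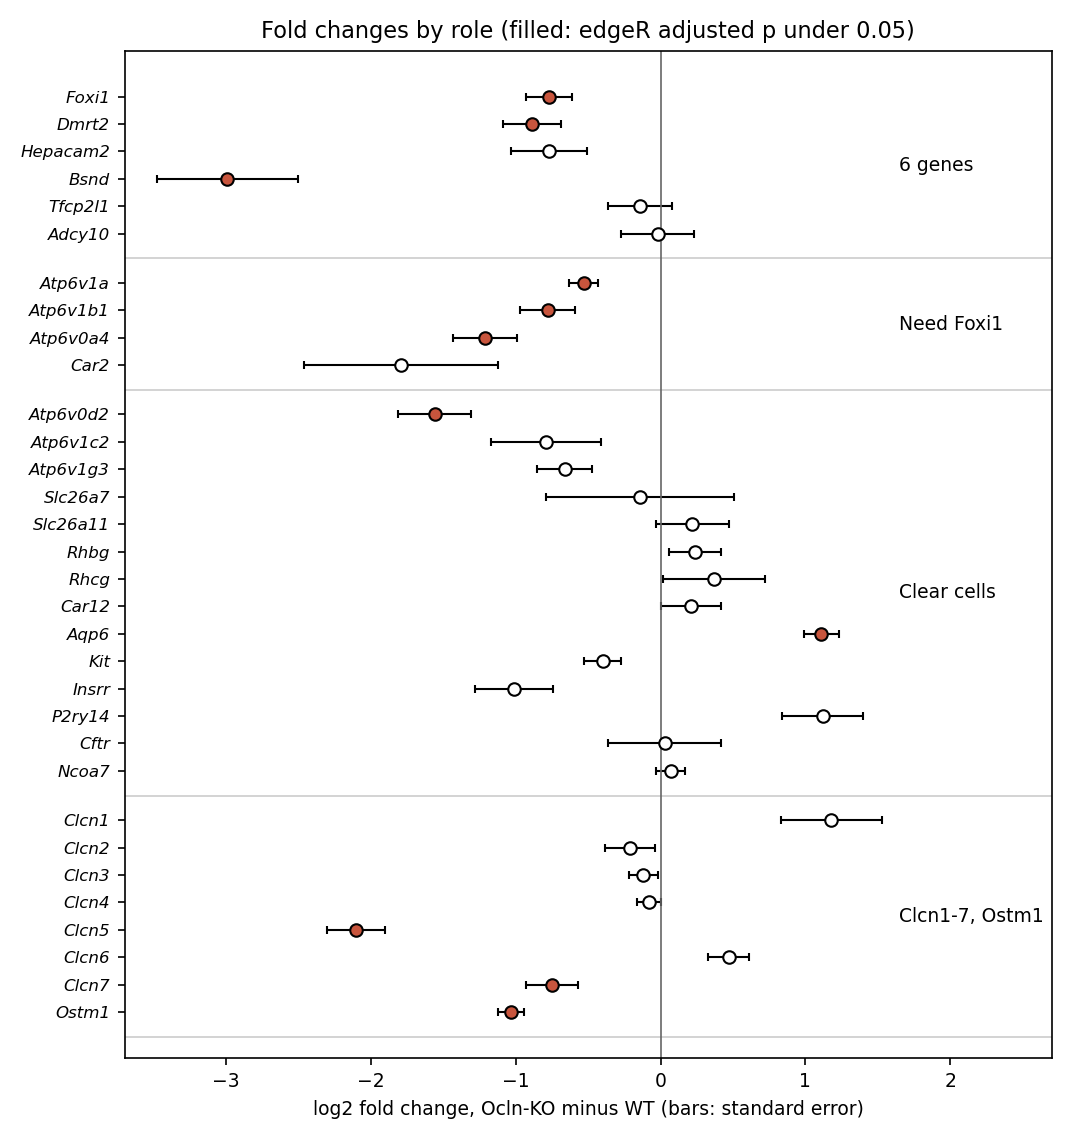
log2 fold change, Ocln-KO minus WT (horizontal axis), with its standard error for the 6 genes, genes known to need Foxi1, other genes of clear cells and Clcn1 to Clcn7 with Ostm1, each point a gene tested over 3 against 3 libraries. Filled points had an edgeR adjusted p under 0.05; Bsnd at -2.99 lies farthest left, and Aqp6 at 1.11 is the filled point on the right.

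Hepacam2 encodes an adhesion protein of the immunoglobulin family that marks intercalated cells of the kidney. It lies on chromosome 6 from 3457089 to 3498322 (minus strand). Its levels were 6.49, 5.65 and 9.95 CPM in WT against 4.33, 3.7 and 4.94 CPM in Ocln-KO. WT replicate 3 was well above the other libraries, and the lowest WT library was close to the highest Ocln-KO library, without overlap. The test gave a log2 fold change of -0.77 (standard error 0.26, edgeR adjusted p = 0.098), so the gene was not called. Without Ocln-KO replicate 3 it was -0.88 (edgeR adjusted p = 0.0883), and without WT replicate 3, the highest library, it was -0.49 (edgeR adjusted p = 0.271). DESeq2 called it lower (log2 fold change -0.76, DESeq2 adjusted p = 0.0449), the only alternative of 14 to do so, while the adjusted p of the others reached 0.271.

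Adcy10, on chromosome 1 from 165483518 to 165576778 (plus strand), is expressed in sperm as well as in clear cells. It had 4.78, 4.01 and 4.57 CPM in WT against 5.36, 4.74 and 3.08 CPM in Ocln-KO. The highest and the lowest library were both Ocln-KO, and the lowest was replicate 3. The log2 fold change was -0.02 (standard error 0.25, edgeR adjusted p = 0.965), and without Ocln-KO replicate 3 it was 0.18 (edgeR adjusted p = 0.642). Its sign also turned with total counts as the scaling (0.06), with the epithelial scaling (0.12) and without WT replicate 1 (0.03).

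Sperm transcripts and Adcy10 were both low in Ocln-KO replicate 3, a single library that stood apart in other genes too. It was also the lowest library for Car2, Slc26a7 and Crisp1, with 5.88, 0.798 and 4436 CPM. For other genes, such as Tfcp2l1 at 200 CPM, it was the highest. The summed level of the 15 spermatid and sperm genes was 459, 351 and 371 CPM in WT against 486, 505 and 114 CPM in Ocln-KO. In replicate 3 this sum was the lowest of the 6 libraries, as was that of Adcy10. The most abundant of the genes, Odf1, had 138 ± 13.6 CPM in WT against 103 ± 59.6 CPM in Ocln-KO (SD, n = 3), with 33.8 CPM in replicate 3, and Prm1 and Prm2 had 4.44 and 15 CPM there. None of the 15 genes was at 0 in any library, though Catsper1 with 1 count and Acrv1 with 3 counts were at the floor in replicate 3. Of the 15, 0 were called in edgeR, DESeq2 or limma-voom, and 0 had an unadjusted p under 0.05 in edgeR. The part of sperm RNA in the level of Adcy10 was not tested.

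**Figure D3:**
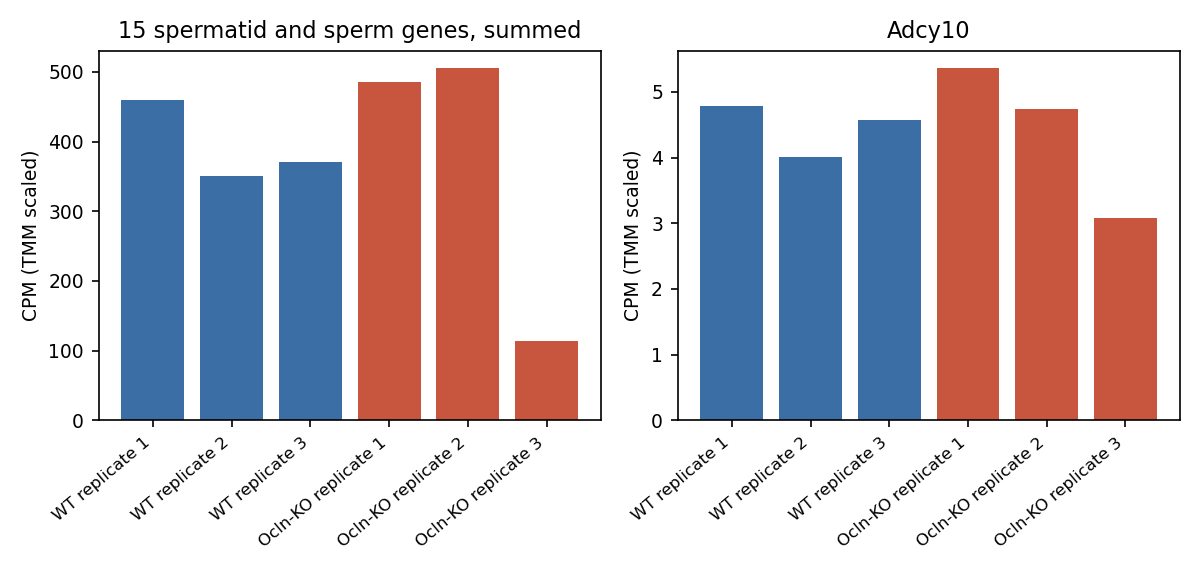
Summed CPM of 15 spermatid and sperm genes (left) and CPM of Adcy10 (right) in each of the 6 libraries, each bar a library and both axes starting at 0. Ocln-KO replicate 3 has the lowest bar in both, 114 CPM for the sum and 3.08 CPM for Adcy10.

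Of the 9 membrane adenylyl cyclases, the other enzymes that make cAMP, 3 were called lower, 0 higher and 6 were not called, with a median log2 fold change of -0.18 that turned to 0.01 under the epithelial scaling. Adcy7 had 161, 160 and 204 CPM in WT against 100, 102 and 69.8 CPM in Ocln-KO (log2 fold change -0.95, standard error 0.17, edgeR adjusted p = 0.0228). Adcy2 had 4.93 ± 0.158 in WT against 2.07 ± 0.39 CPM in Ocln-KO (SD, n = 3; log2 fold change -1.25, edgeR adjusted p = 0.0255), and Adcy5 had 52.3 ± 3.69 and 36.9 ± 1.74 CPM (log2 fold change -0.50, edgeR adjusted p = 0.0241). The genotypes did not overlap for these 3 genes, and the epithelial scaling ended the call of Adcy5 (log2 fold change -0.33, edgeR adjusted p = 0.207) but not the other 2. Of 8 effectors of cAMP, kinase subunits and exchange factors, 1 was called higher and 0 lower, with a median log2 fold change of -0.10 that turned to 0.08 under the epithelial scaling. DESeq2 called 2 lower and 1 higher. The called gene was Rapgef4, an exchange factor for Rap proteins, with 17.6, 19.2 and 21.5 CPM in WT against 36.1, 30.7 and 37.9 CPM in Ocln-KO (log2 fold change 0.84, standard error 0.12, edgeR adjusted p = 0.0148). Of these 4 calls, 0 were kept without WT replicate 1, WT replicate 2 or WT replicate 3, each left out in turn, and without Ocln-KO replicate 2 those of 1 cyclase and of Rapgef4 were.

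Of 7 genes known to need Foxi1 in clear cells, intercalated cells or the inner ear, 4 were tested, of which 3 were called lower and 0 higher. The median log2 fold change of the 4 was -1.0. Atp6v1b1 had 7.96, 9.52 and 11.6 CPM in WT against 5.98, 5.11 and 5.85 CPM in Ocln-KO (log2 fold change -0.78, standard error 0.19, edgeR adjusted p = 0.0458), and without Ocln-KO replicate 3 its edgeR adjusted p was 0.0551. Its fold change was close to that of Foxi1. Atp6v0a4, the a4 subunit of the pump, had 13.5, 14.5 and 18.6 CPM in WT against 7.54, 7.71 and 4.82 CPM in Ocln-KO (log2 fold change -1.21, standard error 0.22, edgeR adjusted p = 0.0245). Atp6v1a, the A subunit that all cells use, had 129 ± 7.89 CPM in WT against 89.5 ± 7.45 CPM in Ocln-KO (SD, n = 3; log2 fold change -0.53, edgeR adjusted p = 0.0235). For these 3 genes each Ocln-KO library was below each WT library. Of the 3 calls, 0 were kept without any one of the WT libraries, 1 remained called without Ocln-KO replicate 2 (Atp6v0a4, just under the threshold, with an edgeR adjusted p that rounds to 0.05), and 2 remained so when replicate 1 or replicate 3 of Ocln-KO was left out. Under the epithelial scaling Atp6v0a4 was still called (edgeR adjusted p = 0.0266), while Atp6v1a (log2 fold change -0.35, edgeR adjusted p = 0.182) and Atp6v1b1 (log2 fold change -0.60, edgeR adjusted p = 0.118) were not. Atp6v1b1 also missed the threshold in limma-voom (adjusted p = 0.054) and with total counts as the scaling (edgeR adjusted p = 0.0629).

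Car2, the cytosolic carbonic anhydrase that supplies protons to the pump, had 137, 98.4 and 161 CPM in WT against 46.3, 62.7 and 5.88 CPM in Ocln-KO. Each Ocln-KO library was below each WT library, and replicate 3 was far below the other Ocln-KO libraries. The test gave a log2 fold change of -1.79 (standard error 0.67, edgeR adjusted p = 0.127), and without Ocln-KO replicate 3 it was -1.28 (edgeR adjusted p = 0.0125). The exchangers Slc26a4, Slc4a1 and Slc4a9, which move chloride and bicarbonate in intercalated cells, had at most 2, 3 and 12 counts in any library and were not tested.

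Of 16 other genes of clear cells, intercalated cells and ionocytes, 14 were tested, 1 was called lower, 1 higher and 12 were not called, with a median log2 fold change of 0.05. Atp6v0d2, the d2 subunit of the pump, had 19.3, 22.5 and 27.9 CPM in WT against 7.51, 5.46 and 10.6 CPM in Ocln-KO (log2 fold change -1.56, standard error 0.25, edgeR adjusted p = 0.0201). Aqp6, an anion-permeable aquaporin of intercalated cells, had 45.1, 37 and 41.6 CPM in WT against 102, 83.4 and 82.5 CPM in Ocln-KO (log2 fold change 1.11, standard error 0.12, edgeR adjusted p = 0.00777). The libraries did not overlap for either gene, and the directions were opposite. Atp6v1g3 had 12.1 ± 1.14 in WT against 7.65 ± 1.69 CPM in Ocln-KO (SD, n = 3; log2 fold change -0.66, edgeR adjusted p = 0.0725). Atp6v1c2 had 49.8, 54.6 and 74.1 CPM in WT against 48.7, 40 and 14.7 CPM in Ocln-KO (log2 fold change -0.79, edgeR adjusted p = 0.216), and without Ocln-KO replicate 3, the lowest library, the log2 fold change was -0.43. Both pump subunits were lower in each Ocln-KO library than in each WT library without passing the test. P2ry14, a receptor for UDP-sugars, was higher in each Ocln-KO library than in each WT library, with 1.9, 2.02 and 1.8 CPM in WT against 4.52, 5.08 and 2.84 CPM in Ocln-KO (fitted fold change 2.17, edgeR adjusted p = 0.0501). It just missed the threshold and was called under 7 of 14 alternatives. Insrr, a receptor that senses alkaline pH, was lower in each Ocln-KO library than in each WT library, with 6.17, 7.35 and 9.39 CPM in WT against 3.05, 3.17 and 5.12 CPM in Ocln-KO (log2 fold change -1.01, standard error 0.27, edgeR adjusted p = 0.0573), and was called under 3 of 14. Kit was lower too without overlap (log2 fold change -0.40, edgeR adjusted p = 0.0963) and was called under 0. Slc26a7, an exchanger for chloride and bicarbonate, overlapped between the genotypes and was far lower in Ocln-KO replicate 3 (0.798 CPM) than in the other libraries (4.74 to 7.97 CPM). Its log2 fold change was -0.14 (edgeR adjusted p = 0.915), and it turned to 0.38 without that library. In all, of the 14 genes tested, 5 were lower without overlap of the genotypes, against 19.4% of all genes, and 2 were higher, against 16.9%. DESeq2 called 3 genes of this list lower and 2 higher. Of the calls of Atp6v0d2 and Aqp6, 0 were kept without WT replicate 1 or WT replicate 3 and 1 without WT replicate 2.

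**Figure D4:**
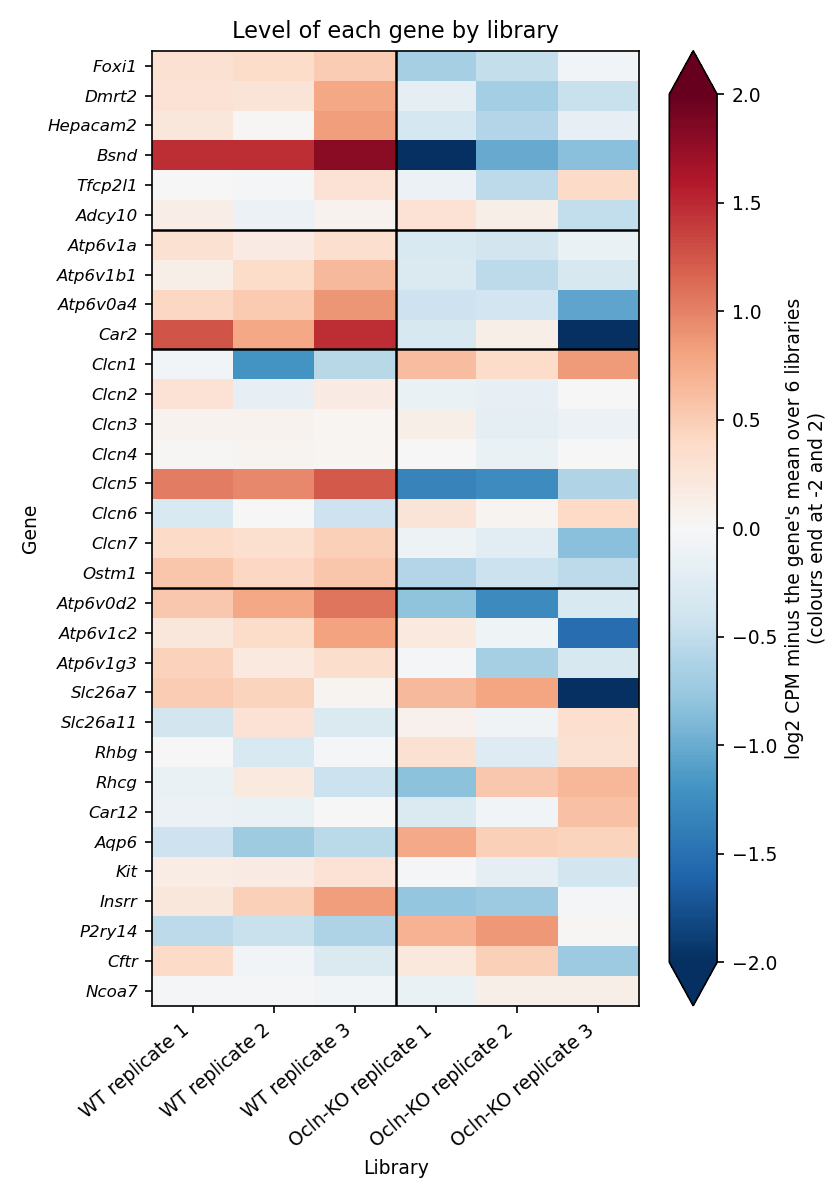
log2 CPM of each gene (rows) in each library (columns) minus the mean of that gene over the 6 libraries; red is above and blue below that mean, and the colours end at -2 and 2. Lines part the genotypes and the groups of genes, which are from the top the 6 genes, genes known to need Foxi1, Clcn1 to Clcn7 with Ostm1 and other genes of clear cells; Car2, Slc26a7 and Atp6v1c2 are far bluer in Ocln-KO replicate 3, with 5.88, 0.798 and 14.7 CPM there, than in the other Ocln-KO libraries.

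Set against Foxi1 in the same library, Dmrt2, Hepacam2, Bsnd and Tfcp2l1 fell into different patterns. Per kilobase, Dmrt2 stood at 0.508, 0.476 and 0.614 of the level of Foxi1 in WT and at 0.708, 0.445 and 0.391 in Ocln-KO. Hepacam2 stood at 0.0851, 0.071 and 0.113 in WT and at 0.111, 0.0832 and 0.0827 in Ocln-KO. These ratios of Dmrt2 and Hepacam2 overlapped between the genotypes, as did that of Atp6v1b1, with means of 0.159 ± 0.0181 in WT against 0.164 ± 0.0376 in Ocln-KO (SD, n = 3). The ratio of Bsnd to Foxi1 was 0.193, 0.185 and 0.211 in WT and 0.0153, 0.0571 and 0.0486 in Ocln-KO. The ratio of Tfcp2l1 to Foxi1 was 1.25, 1.17 and 1.31 in WT and 2.22, 1.48 and 2.08 in Ocln-KO. Each Ocln-KO library was thus below each WT library in the ratio of Bsnd and above each in that of Tfcp2l1. The ratios are descriptions and were not tested.

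**Figure D5:**
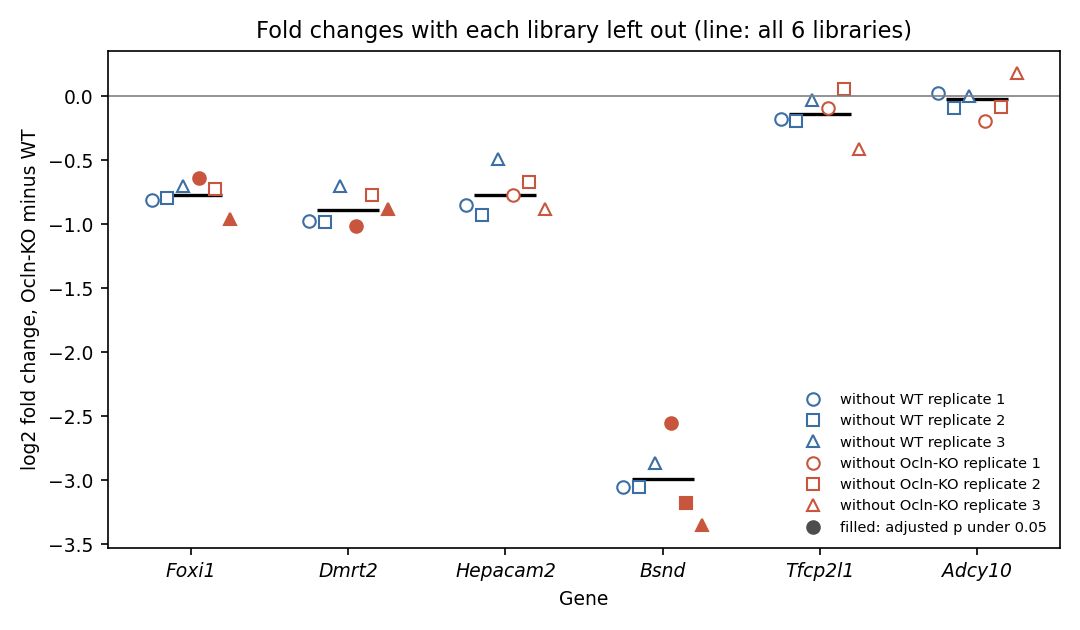
log2 fold change, Ocln-KO minus WT (vertical axis), of each of the 6 genes with all 6 libraries (black line) and after leaving out 1 library at a time (points, colour and shape giving the library; filled where the edgeR adjusted p was under 0.05). Foxi1, Dmrt2, Hepacam2 and Bsnd stay below 0 in all 6 cases, Bsnd between -3.35 and -2.55, while Tfcp2l1 and Adcy10 have points on both sides of 0.

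Genes outside the 6 with the most similar profile over the 6 libraries were found by the root mean square difference of log2 CPM, each gene centred on its own mean, among 16350 genes with at least 1 CPM on average. Nearest to the mean profile of the 6 genes were LOC102634389, Gpr157, Gprasp2, Gpm6b and Sema3b, with differences of 0.07, 0.09, 0.09, 0.10 and 0.11 on the log2 scale. Nearest to Foxi1 alone were Sema3b, Ftl1-ps1, Nipal3, Ogdhl and Selenbp1, with differences of 0.06, 0.08, 0.08, 0.09 and 0.10. Sema3b, which encodes a secreted semaphorin and was near in both searches, had a mean of 28.5 CPM in WT against 16.8 CPM in Ocln-KO (log2 fold change -0.76, edgeR adjusted p = 0.0279). Since Sema3b was picked for its likeness over the same libraries, its fold change and p-value follow from that choice and are no separate result. Ftl1-ps1 is a pseudogene of a ferritin gene whose reads can be shared with its parent, and its value is uncertain.

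Relatives of the 3 transcription factors did not pass the test. Of 13 forkhead, DM domain and grainyhead genes, 6 were tested and 0 were called in edgeR, DESeq2 or limma-voom, while 1 had an unadjusted p under 0.05 in edgeR. Foxi2, Dmrt3 and Grhl3 had 0 counts in every library, and Foxi3 and Dmrt1 had at most 1 count, so Foxi1 was the only Foxi gene above the floor. The most abundant, Grhl2, had 102 ± 5.22 CPM in WT against 122 ± 6.93 CPM in Ocln-KO (SD, n = 3; log2 fold change 0.26, edgeR adjusted p = 0.0968). Of 8 genes of the Notch pathway and of collecting duct fate, which sort principal from intercalated cells in the kidney, 2 were called higher and 0 lower. DESeq2 called 3 higher and 0 lower. Hes1 had 6.14, 7.91 and 9.09 CPM in WT against 14.8, 10.1 and 14.5 CPM in Ocln-KO, without overlap. It did not pass the test (log2 fold change 0.77, edgeR adjusted p = 0.0626) and was called under 4 of 14 alternatives. The ligand gene Jag1 had 34, 32.9 and 36.8 CPM in WT against 65.2, 47 and 56.8 CPM in Ocln-KO (log2 fold change 0.70, standard error 0.13, edgeR adjusted p = 0.0242). Elf5, a factor of kidney principal cells, had 1.26, 1.05 and 0.242 CPM in WT against 3.36, 12.8 and 4.38 CPM in Ocln-KO (log2 fold change 3.0, standard error 0.69, edgeR adjusted p = 0.0399). Both were higher in each Ocln-KO library than in each WT library, Elf5 from a low level. Neither call was kept without WT replicate 1, WT replicate 2 or WT replicate 3, and without Ocln-KO replicate 2 only that of Jag1 was. Leaving out that library, the highest for Elf5, brought the log2 fold change of Elf5 to 2.18 (edgeR adjusted p = 0.0951), and limma-voom did not call it (adjusted p = 0.0671).

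Markers of other cell types are given here by list. The 10 general epithelial genes summed to 2288, 2315 and 2569 CPM in WT against 2418, 2087 and 1916 CPM in Ocln-KO, with 1 called higher (Krt19, log2 fold change 0.79, edgeR adjusted p = 0.0336) and 0 lower in edgeR, the most abundant being Krt18. DESeq2 called 1 lower and 1 higher. The sums overlapped between the genotypes, and with the libraries scaled to these genes Bsnd was called while Foxi1 and Dmrt2 were not (edgeR adjusted p = 0.14 and 0.0593). The 12 principal cell genes summed to 37211, 34136 and 32433 CPM in WT against 22897, 38779 and 32509 CPM in Ocln-KO, with Crisp1 the most abundant. Without Gpx5 the sums were 37157, 33964 and 32407 CPM in WT against 22641, 31520 and 22478 CPM in Ocln-KO, each Ocln-KO library below each WT library, and without Gpx5 and Crisp1 they were 20403, 21487 and 17003 CPM in WT against 12693, 22369 and 18042 CPM in Ocln-KO, which overlapped. Crisp1 itself had 16754, 12477 and 15403 CPM in WT against 9948, 9152 and 4436 CPM in Ocln-KO (log2 fold change -0.92, edgeR adjusted p = 0.0855), and Ces5a had 4323 ± 414 against 2919 ± 789 CPM (SD, n = 3; log2 fold change -0.57, edgeR adjusted p = 0.12). Neither overlapped between the genotypes or passed the test. DESeq2 called 3 principal cell genes lower and 1 higher. Of the 9 tested, Aqp9 was called lower in edgeR (log2 fold change -0.46, edgeR adjusted p = 0.028), though not under the epithelial scaling (edgeR adjusted p = 0.201), and Gpx5, a gene of the caput, higher (log2 fold change 6.12, standard error 1.34, edgeR adjusted p = 0.0359). Gpx5 had 54.4, 172 and 26.3 CPM in WT against 256, 7258 and 10031 CPM in Ocln-KO, and so differed widely within Ocln-KO. The study describes an enlarged caput and a degenerated cauda in Ocln-KO mice. The share of each region in the RNA was not tested. Of 5 basal cell genes, Krt14 was called higher (log2 fold change 0.58, edgeR adjusted p = 0.0276), the most abundant being Trp63, and the sums were 168, 161 and 161 CPM in WT against 216, 188 and 214 CPM in Ocln-KO.

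Of 6 smooth muscle genes, 2 were called higher, Actg2 (log2 fold change 1.09, edgeR adjusted p = 0.0489) and the most abundant, Myh11 (log2 fold change 0.77, edgeR adjusted p = 0.0296), and the sums were 1214, 1428 and 1182 CPM in WT against 1615, 2185 and 1799 CPM in Ocln-KO. DESeq2 called 4 of the 6 higher and limma-voom 1, without Actg2 (adjusted p = 0.057), and 6 had an unadjusted p under 0.05 in edgeR. The 9 genes of mononuclear phagocytes summed to 179, 160 and 158 CPM in WT against 182, 237 and 299 CPM in Ocln-KO, with Mrc1 the most abundant. All 9 had a log2 fold change above 0 and 0 were called in edgeR or limma-voom, while DESeq2 called 4 higher and 6 had an unadjusted p under 0.05 in edgeR. The 6 lymphocyte genes summed to 1.95, 2.14 and 2.18 CPM in WT against 3.99, 4.3 and 5.71 CPM in Ocln-KO, with 0 of 3 tested genes called in edgeR, DESeq2 or limma-voom and 1 with an unadjusted p under 0.05; Cd3e was the most abundant. For basal cells, muscle, phagocytes and lymphocytes, each Ocln-KO sum was above each WT sum. For phagocytes the gap was narrow, with 182 CPM in the lowest Ocln-KO library against 179 CPM in the highest WT library. The part of these cell types in the lower levels of Foxi1, Dmrt2 and Bsnd was not tested.

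Of 5 genes of testis somatic cells, 2 were tested and Cyp17a1, an enzyme of androgen synthesis, was called lower (log2 fold change -2.60, standard error 0.37, edgeR adjusted p = 0.0144). The sums of 191, 162 and 229 CPM in WT against 45.1, 40.9 and 17.1 CPM in Ocln-KO were mostly from Cyp17a1. Insl3, which defines Leydig cells, had at most 9 counts in any library. Gata1 had 0 counts in each WT library and 2, 9 and 0 counts in Ocln-KO replicates 1 to 3. Of 5 genes of multiciliated cells 4 were listed, 3 were tested and 0 were called in edgeR, DESeq2 or limma-voom, with 0 at an unadjusted p under 0.05. Their sums were 27.1, 24.8 and 25.6 CPM in WT against 11.6, 24.9 and 20.8 CPM in Ocln-KO, nearly all from Ccno, and Foxj1 had at most 1.72 CPM. Over the marker lists, 7 genes were called, of which 0 kept their call without WT replicate 1 or WT replicate 3, 1 without WT replicate 2, and of the Ocln-KO libraries, leaving out replicate 1 kept 6, replicate 2 kept 2 and replicate 3 kept 7.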

How the data were processed

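Whole-epididymis RNA was depleted of rRNA, made into directional libraries and sequenced as paired ends on 1 lane. The authors aligned the reads to GRCm38 with HISAT2 2.0.4 (version from the submitters' processing notes), and the deposited values are HTSeq counts per gene and library, not normalized. The counting mode and strand setting are not given in the sources used here, and columns without a sample numbered 0.

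The fit used edgeR 4.0.16 under R 4.3.3 with filterByExpr, TMM factors, estimateDisp (common dispersion 0.0577) and the quasi-likelihood test, and p-values were adjusted by Benjamini-Hochberg over the 19691 genes tested. The standard error is the absolute log2 fold change over the root of F. Exon lengths for CPM per kilobase come from GENCODE M21, and log2 CPM had a prior count of 2. No exact two-sided permutation test of 3 against 3 libraries can give a p under 0.1, so none was run for single genes. The code was tested on simulated counts.

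The genes named were the 6 genes, the genes of each list with an adjusted p under 0.05 (or the most abundant where there was none), 5 subunits of the pump, Car2, Ocln and the genes nearest in profile. Others were named after their values were seen, and some genes of the rule are not reported here. The 6 genes and the lists were chosen with earlier results of these data known. Alternatives were DESeq2 1.42.0, limma-voom (limma 3.58.1), RLE factors, total counts, epithelial scaling, a minimum of 10 counts in every library, no filter, a replicate block and leaving out each library.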

Additional observations from a re-analysis of the deposited data

How the results depend on the processing

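Over 14 alternatives, the log2 fold changes of Foxi1, Dmrt2, Hepacam2 and Bsnd kept their sign. Foxi1 and Dmrt2 were called under 8 of 14, Bsnd under 9 of 13 and Hepacam2 under 1. With at least 10 counts required in every library Bsnd could not be tested, since Ocln-KO replicate 1 had 9. With limma-voom, RLE factors, total counts only and no count filter, the 3 genes called were the same, and DESeq2 added Hepacam2. With a library left out, 0 to 3 of the 6 genes were called lower, between 19 and 944 of all genes lower and between 4 and 782 higher, in the pathway lists 1 to 13 lower and 0 to 5 higher, and in the marker lists 0 to 3 lower and 0 to 14 higher. In these fits Tfcp2l1 ran from -0.41 to 0.06 and Adcy10 from -0.19 to 0.18 on the log2 scale.

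In the other alternatives, DESeq2 called 14 pathway genes lower and 8 higher (against 10 and 4), 5 marker genes lower and 11 higher (against 2 and 5), and 1637 genes lower and 1528 higher in all. Total counts only gave 1174 higher genes and Adcy10 at 0.06. The epithelial scaling gave 1 of the 6 genes lower, 1 marker gene lower and 371 genes lower in all, with Tfcp2l1 at 0.06 and Adcy10 at 0.12. Without a count filter 8 marker genes were higher. The causes were not tested.

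The replicate block called 0 of the 6 genes, 1 pathway gene lower and 1 higher, 0 marker genes in either direction, and 31 genes lower and 10 higher in all. Deviations of same-numbered libraries correlated at -0.05, -0.03 and -0.00, so no shift shared by same-numbered libraries was seen. These correlations cannot tell whether the mice or the preparations were paired, and the study's methods name 3 pairs of mice. A level at or under 3 counts cannot be told from 0 at this depth.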
